A study of Mus musculus with 3 samples.

Results

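Claudins and their partners at the tight junction were followed through an episode of colitis at the anorectal junction of the mouse, where the squamous epithelium of the anus meets the columnar epithelium of the colon. The genes described are the claudins Cldn1, Cldn2, Cldn3, Cldn4, Cldn7, Cldn8, Cldn15 and Cldn23, with Ocln (occludin) and Tjp1 (ZO-1). They were chosen by name, as 10 of the 31053 genes on the rows of the deposited matrix. C57Bl/6 mice bought at 6 weeks of age, whose sex the labels do not give, formed 3 groups of 5. One group was untreated and dissected on day 0. The other groups drank 3% dextran sulfate sodium (DSS), a polymer that injures the colonic epithelium, in their water for 6 days from day 0, and were dissected on day 7, labelled severe colitis, or on day 42. The distal colon and anus of the 5 mice of a day were pooled, digested with trypsin, depleted of dead cells with annexin V, filtered, and sequenced as 1 droplet-based 3′ library on the 10x Chromium platform.

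A tight junction seals the gap between neighbouring epithelial cells near their apical side. Claudins are membrane proteins that pair across that gap, and their mix sets how tight the seal is and which ions pass. Some claudins mainly seal, and others, among them the products of Cldn2 and Cldn15, form channels for small cations. Occludin is a further membrane protein of the junction, and ZO-1 is a scaffold that links the membrane proteins to actin.

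The positions given here are in mouse build GRCm38, from GENCODE M21. The single-exon genes Cldn4 (chr5:134945119-134946934, minus strand) and Cldn3 (chr5:134986214-134987472, plus strand) are neighbours transcribed away from each other, with 39279 bases and 0 annotated genes between them. Cldn3 shares 40 bases with an antisense gene, Wbscr25. Cldn2 (chrX:139800828-139811386, plus strand) has 2 exons in its first-numbered transcript. Promoter windows of RefSeq, build GRCm38.p6, were matched by symbol for 8 of the 10 genes. The windows of Cldn2, Cldn3 and Cldn4 are printed, since Cldn2 was the member with the largest difference in columnar cells after DSS, and the neighbours Cldn3 and Cldn4 were both higher in squamous cells on day 42. Each is the 250 bases before the gene's RefSeq start, which for Cldn2 lies before the start in GENCODE, 5′ to 3′ on the gene's strand, and overlaps 0 annotated exons. Capitals mark TTTAT, a core bound by caudal-type homeobox factors, TGANTCA, the core of AP-1 sites, and GGGCGG, the GC box, each searched on both strands.
Cldn2 (chrX:139800558-139800807, plus strand): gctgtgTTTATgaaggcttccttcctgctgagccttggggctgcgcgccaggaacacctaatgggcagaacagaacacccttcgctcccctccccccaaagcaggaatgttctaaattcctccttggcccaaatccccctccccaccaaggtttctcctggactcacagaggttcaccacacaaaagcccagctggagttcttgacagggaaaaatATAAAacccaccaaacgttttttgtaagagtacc
Cldn3 (chr5:134985964-134986213, plus strand): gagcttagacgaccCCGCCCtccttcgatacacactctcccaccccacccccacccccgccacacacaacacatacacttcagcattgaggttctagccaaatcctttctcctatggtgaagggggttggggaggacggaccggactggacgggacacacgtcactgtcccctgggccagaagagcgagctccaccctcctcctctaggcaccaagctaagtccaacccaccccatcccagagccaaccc
Cldn4 (chr5:134946935-134947184, minus strand): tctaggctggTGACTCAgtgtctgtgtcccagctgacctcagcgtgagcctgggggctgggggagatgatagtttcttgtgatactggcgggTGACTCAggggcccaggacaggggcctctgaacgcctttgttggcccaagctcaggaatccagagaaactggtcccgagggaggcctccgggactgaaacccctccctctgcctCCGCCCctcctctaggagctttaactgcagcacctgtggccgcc
The Cldn2 window held 2 matches to TTTAT, 1 of them overlapping a match to TATAAA. The Cldn3 window held 1 match to GGGCGG, and the Cldn4 window held 2 to TGANTCA and 1 to GGGCGG. Of all 32851 windows of this length, 37.3% held TTTAT, 6.75% TGANTCA, 32.7% GGGCGG and 12.4% TATAAA. A match describes the letters only.

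The authors' cell annotation held 20321 keratinocytes, the squamous cells, and 7048 columnar cells (colonocytes, secretory colonocytes and enteroendocrine cells, EEC). Levels are given as CPM, the unique molecular identifiers (UMIs, counted RNA molecules) of a gene for every 1000000 UMIs of all genes, summed over all cells of a class or cluster in 1 library. Summed over a class, the markers followed the annotation. The summed level of 8 squamous markers was 14750 to 26220 CPM in squamous and 1286 to 3385 CPM in columnar cells over the 3 days, and that of 9 columnar markers 15680 to 24810 CPM in columnar and 490.1 to 1667 CPM in squamous cells. Cluster 22, annotated as colonocytes and nearly all from day 7, was the exception: its 279 cells of that day had 14000 CPM of columnar, 11040 CPM of squamous and 12390 CPM of neutrophil markers. With clusters 12 and 22 left out, the counts of members past 2-fold given below were the same. The libraries held 11037, 14376 and 11667 cells on days 0, 7 and 42, at a median of 5995, 6217.5 and 5708 UMIs per cell. Over 20% of UMIs were mitochondrial in 32.1%, 14.9% and 13% of cells, and a filter that left out such cells together with those under 1000 UMIs or 500 genes changed none of those counts. Between 40 and 55 cell barcodes were shared by any pair of libraries. With 1 library per day, no difference between days has a replicate check and no test was made. Intervals, in parentheses, are at 95% (exact Poisson for a CPM, Clopper-Pearson for a share of cells, exact binomial for a ratio) and cover counting error only. Log2 ratios were taken after adding 10 CPM to each level, which understates differences of genes at low levels, and "2-fold" below means a log2 ratio of at least 1 in size.

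Before injury, the columnar cells carried more of most claudins than the squamous cells. At day 0, 7 of the 10 genes were higher in columnar cells by 2-fold or more and 1 was lower. Of the 9164 genes at 10 CPM or more in either class, 11.6% were higher and 8.47% lower by that much. The median log2 ratio was 1.46 over the 10 genes and 0.02 over all genes. Cldn1, a sealing claudin that the skin barrier needs, was the gene with the opposite distribution. It was at 44.9 CPM (42.7 to 47.2) in squamous and 2.73 CPM (2.27 to 3.27) in columnar cells, 16.4-fold higher in squamous cells (13.6 to 19.9).

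Cldn3 and Cldn7 were the broad columnar claudins, with a UMI in 87.0% and 91.3% of columnar cells at day 0. Cldn3, a sealing claudin, was at 22.5 CPM in squamous and 711.1 CPM in columnar cells, 31.6-fold higher in the latter (29.4 to 33.9). Cldn7, which also lies along the basolateral membrane, was at 44.4 and 1005 CPM, 22.7-fold higher (21.5 to 23.9). The channel formers were low in squamous cells. Cldn2 was at 0.65 CPM (0.41 to 0.98) in squamous and 64.4 CPM (62.1 to 66.8) in columnar cells, and Cldn15 at 0.24 CPM (0.10 to 0.46) and 13.6 CPM (12.5 to 14.7). Cldn8, a sealing claudin of the distal colon, was at 8.59 and 40.3 CPM, 4.70-fold higher in columnar cells (4.15 to 5.33). Cldn23 was at 4.24 and 47.6 CPM, 11.2-fold higher (9.48 to 13.4), and Ocln at 13.7 and 56.1 CPM, 4.08-fold higher (3.69 to 4.51). The remaining members were within 2-fold. Cldn4, a claudin that limits the passage of sodium, was at 34.4 and 76.7 CPM, a log2 ratio of 0.97 just inside the threshold, and the scaffold Tjp1 at 44.0 and 48.9 CPM, a log2 ratio of 0.12.

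**Figure D1:**
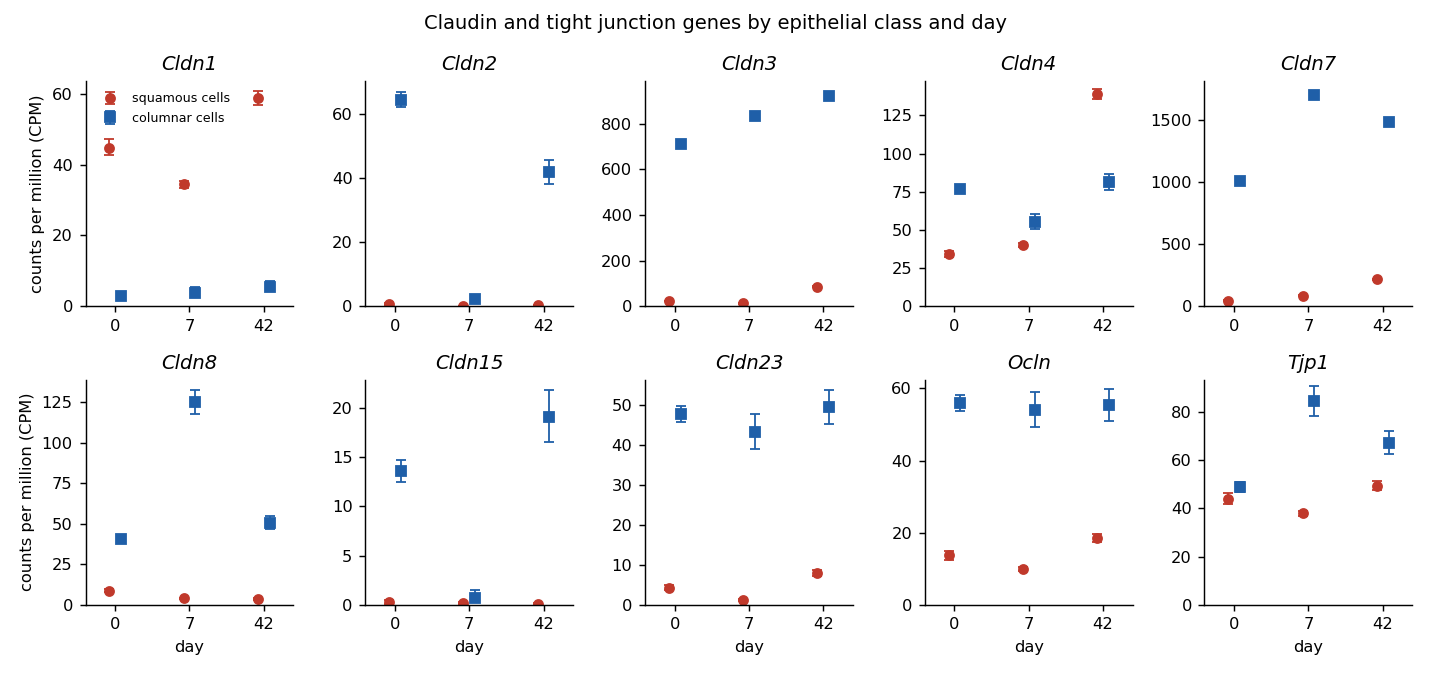
Level of each gene in CPM (vertical axis, with a scale of its own per gene) in squamous and columnar cells on days 0, 7 and 42. Bars are 95% Poisson intervals of the summed counts of 1 library. Cldn2 in columnar cells is at 64.4, 2.13 and 41.7 CPM, and Cldn4 in squamous cells at 34.4, 40.0 and 138.9 CPM.

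Among squamous clusters at day 0 the claudins were unevenly spread. Cluster 5, led by Psca and Ltf, held 87 cells, 2.62% of squamous cells and 3.93% of their UMIs, but 44.3% of the squamous UMIs of Cldn3, 42.4% of Cldn23, 35.0% of Cldn7 and 33.5% of Cldn4. It had 253.5 CPM of Cldn3, 293.1 CPM of Cldn4, 394.8 CPM of Cldn7 and 45.6 CPM of Cldn23. In cluster 4, led by the epidermal keratins Krt10 and Krt1, these genes were at 10.3, 22.8, 27.6 and 4.13 CPM. The squamous signal of these 4 claudins at day 0 thus came to a large part from few cells.

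Cldn1 had another order over the squamous clusters at day 0. It was at 128.3 CPM (107.9 to 151.4) in cluster 17, led by Cxcl14 and Krt71, 120.5 CPM (72.6 to 188.2) in the 51 cells of cluster 12, led by hair keratin genes such as Krt25, 105.7 CPM (97.8 to 114.2) in cluster 8, led by Cst6, Defb6 and Krt79, and 96.5 CPM (80.5 to 114.6) in cluster 5. The intervals of these 4 clusters overlapped for each neighbouring pair in that order. Below them, with intervals apart from theirs and from each other, came cluster 13, led by the lipid enzyme gene Scd1, at 56.2 CPM (47.0 to 66.6), cluster 4 at 29.9 CPM (26.5 to 33.5) and cluster 9 at 18.0 CPM (14.5 to 22.1). Cluster 3, with Rrm2 and Ube2c, genes of dividing cells, in the lead, was at 10.9 CPM (7.87 to 14.8), and cluster 1, led by S100a4 and Krt15, a keratin of basal cells, at 5.39 CPM (3.38 to 8.16). The interval of cluster 3 overlapped those of clusters 9 and 1.

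Some of these levels were no higher than in T cells, which should lack epithelial claudins. T cells had 18.1, 9.04 and 5.02 CPM of Cldn3 on days 0, 7 and 42, and 14.5, 12.1 and 30.1 CPM of Cldn7. A Cldn7 UMI was found in 2.74%, 3.39% and 3.31% of T cells, at median depths of 2064, 2260 and 1393 UMIs. Cldn3 and Cldn7 in squamous clusters 8, 9 and 17 were at 2.20 to 21.6 CPM over the 3 days, where the T cells were at 5.02 to 30.1 CPM. No difference between days is read from those clusters, nor from Cldn2 and Cldn15 in squamous cells, which were at or under 0.65 and 0.24 CPM on every day.

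Among columnar clusters at day 0, Cldn2 was high in cluster 7, led by Cela1 and Kcne3 (91.6 CPM, 88.1 to 95.3), and in the secretory cluster 15, led by Mptx1, Spink4 and the mucin gene Muc2 (89.3 CPM, 79.7 to 99.8). In cluster 2, led by Saa1 and the carbonic anhydrase genes Car1 and Car4, it was at 2.59 CPM (1.78 to 3.64). Cldn2 was detected in 57.7% of cluster 7, with a median depth of 14084 UMIs, and in 1.24% of cluster 2, with one of 4419.5 UMIs. Thinning every cell to 1000 UMIs gave 9.01% and 0.21%, while T cells had no Cldn2 UMI on any day. Cldn15 was at 48.7 CPM (41.6 to 56.5) in the secretory cells, 15 CPM (13.5 to 16.5) in cluster 7 and 1.49 CPM (0.90 to 2.33) in cluster 2. The channel formers were thus both lowest in cluster 2 among these 3 clusters. EEC had no UMI of either gene at day 0, where 3 counts would be 5.27 CPM.

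The other columnar members were high in cluster 2 or spread over the clusters. Cldn8 was at 75.2 CPM (70.5 to 80.1) in cluster 2 and 26.5 CPM in each of clusters 7 and 15. Cldn23 and Ocln were at 67.1 and 87.8 CPM in cluster 2 and at 40.5 and 42.8 CPM in cluster 7. Tjp1 was at 78.8 CPM in cluster 2 and 35.6 CPM in cluster 7. These 4 genes therefore shared an order, higher in cluster 2 than in cluster 7. Cldn3 and Cldn7 had it as well, at 827.8 and 1223 CPM in cluster 2 and 654.4 and 947.5 CPM in cluster 7. Cldn4 was at 66.8 CPM in cluster 2, 65.7 CPM in cluster 7, 170.4 CPM (157.0 to 184.6) in the secretory cells and 242.6 CPM (203.8 to 286.6) in the 78 EEC.

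**Figure D2:**
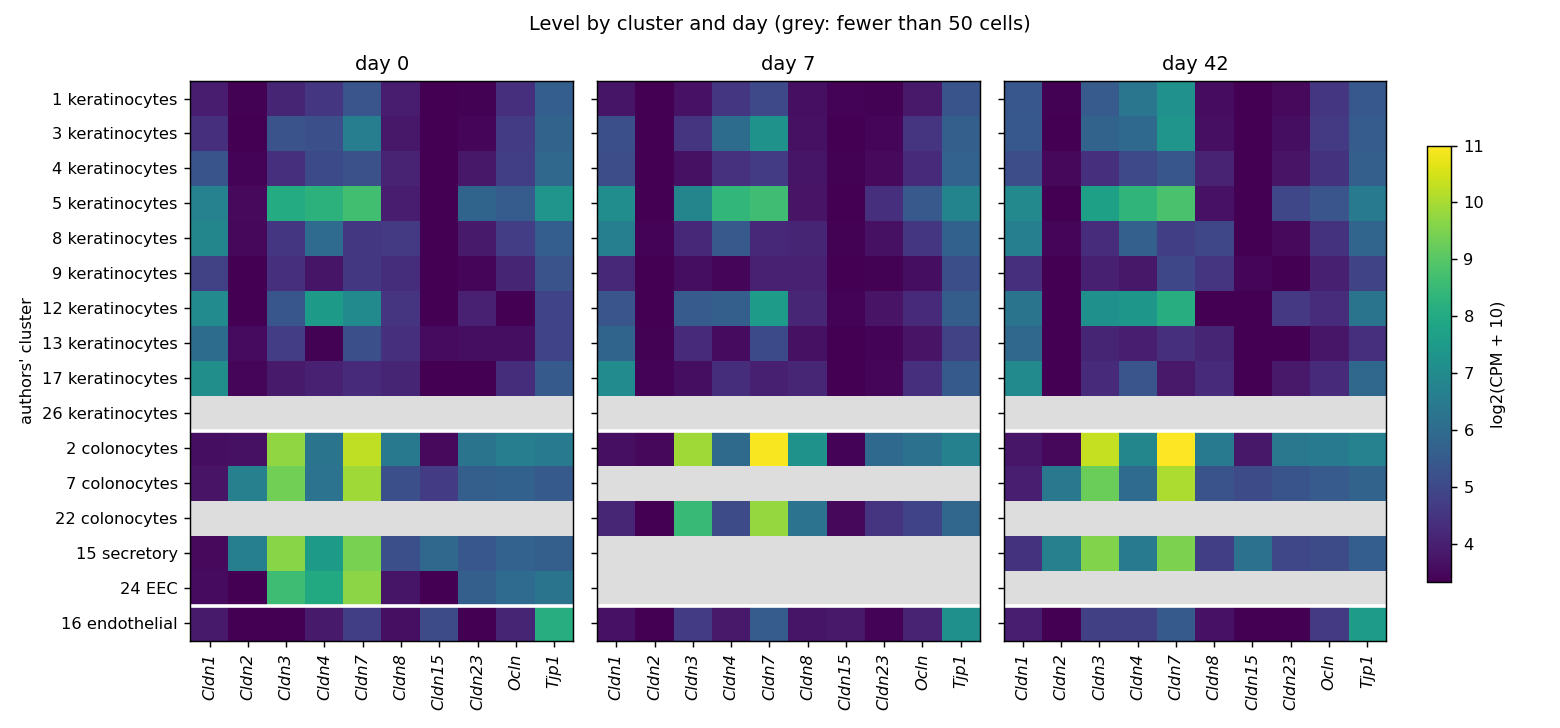
Heat maps of log2(CPM + 10) for each gene (columns) in the authors' clusters (rows) on days 0, 7 and 42, with grey for fewer than 50 cells. Cluster 5 is the squamous row with high Cldn3, Cldn4 and Cldn7, and Cldn2 is seen in clusters 7 and 15.

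In columnar cells at day 7 the channel formers were lower and Cldn8 was higher. Of the 10 genes, 1 was higher than at day 0 by 2-fold or more and 2 were lower. Of 8486 genes, 4.02% were higher and 2.43% lower by that much, and the median log2 ratio was 0.04 over the members and -0.14 over all genes. Cldn2 was at 64.4 CPM on day 0, 2.13 CPM (1.28 to 3.33) on day 7 and 41.7 CPM (38.0 to 45.7) on day 42. The day 7 level rested on 19 UMIs and was 30.2-fold below day 0 (19.3 to 50.2). Cldn15 was at 13.6, 0.67 (0.25 to 1.47) and 19.1 CPM (16.6 to 21.8), and its day 7 level, from 6 UMIs, was 20.1-fold below day 0 (9.19 to 55.1). The calls of Cldn8 and Cldn15 were lost with the mean of CPM per cell (log2 ratios of 0.99 and -0.94) and with thinning (0.88 and -0.68), and that of Cldn15 with colonocytes alone (-0.95). Both channel formers were thus lowest on day 7 and near day 0 again on day 42, when Cldn2 was 1.54-fold below day 0 (1.40 to 1.71) and Cldn15 1.41-fold above it (1.20 to 1.65). The columnar cells with at least 1 Cldn2 UMI came to 28.4%, 1.13% and 14.6%, where median depths were 8916.5, 4017 and 5951.5 UMIs. After thinning to 1000 UMIs, which left out 49, 33 and 144 cells, the shares were 4.68%, 0% and 2.47%.

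The makeup of the columnar cells moved with these genes. Cluster 7 made up 42.0% of columnar cells on day 0, 3.11% on day 7 and 24.5% on day 42, and the secretory cluster 11.1%, 3.30% and 10.7%. Cluster 2 made up 45.0%, 66.2% and 63.8%, and cluster 22, led by Mgat4c, Ly6g and Il18, 0.0929%, 26.3% and 0.298%. As shares of columnar UMIs, which set the class level, cluster 7 came to 61.7%, 11.4% and 42.7%, the secretory cluster to 8.01%, 2.44% and 10.7%, and cluster 2 to 29%, 76.4% and 46%. Cluster 22 came to 8.69% of UMIs on day 7. On day 7 the levels within clusters 7 and 15 were low as well, though few cells were left. The 33 cells of cluster 7 held 9 Cldn2 UMIs at a median depth of 29614 UMIs, or 8.87 CPM (4.05 to 16.8) against 91.6 on day 0 and 73.4 on day 42. The 35 secretory cells held 2 Cldn2 UMIs, both in 1 cell, or 9.21 CPM (1.12 to 33.3) against 89.3 and 92.3. Cldn15 had 1 UMI in the former cells and 0 in the latter, where 3 counts would be 13.8 CPM. Marker levels differed within these clusters too. Squamous markers in cluster 7 were at a summed 1384 CPM on day 0 and 5051 CPM on day 7. Secretory markers in the secretory cluster were at 18750 and 63930 CPM. Their part in these levels was not tested.

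Without cluster 7 the log2 ratio of day 7 over day 0 in columnar cells was -1.44 for Cldn2 and -1.0 for Cldn15, against -2.62 and -1.14 with it. Within cluster 2, the columnar cluster with at least 50 cells on both days, Cldn2 was at 2.59 and 1.18 CPM and Cldn15 at 1.49 and 0.59 CPM, levels too low for a 2-fold log2 ratio with 10 CPM added. How far the makeup accounts for the class values was not tested beyond these settings.

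Cldn8 stood higher in columnar cells on day 7, at 124.9 CPM (117.7 to 132.5) against 40.3 CPM (38.5 to 42.3) on day 0 and 50.7 CPM (46.6 to 55.1) on day 42. The day 7 level was 3.10-fold above day 0 (2.87 to 3.34). Within cluster 2 it was at 75.2, 142.0 and 79.6 CPM, 1.89-fold above day 0 on day 7 (1.73 to 2.07). Cluster 2 was thus higher on day 7 as well, but short of 2-fold, and without cluster 7 the class was at a log2 ratio of 0.94 against 1.42, while it was past 2-fold without clusters 7 and 22. The 33 cells of cluster 7 on day 7 had 88.7 CPM, against 26.5 on day 0 and 28.9 on day 42. A Cldn8 UMI was found in 30.8%, 48.1% and 25.7% of cluster 2 cells, and in 7.42%, 10.5% and 7.51% after thinning. Neutrophil markers also stood higher in columnar cells on day 7, with 3 of 3 above 0 on each day at a summed 0.80, 2209 and 100.9 CPM, as did squamous markers at 1286, 3385 and 2716 CPM. In cluster 2 on day 7 they were at 1315 and 2273 CPM. Cldn8 was at 0.24 CPM in neutrophils and 3.89 CPM in squamous cells on day 7. The part of such RNA in the columnar Cldn8 level was not tested.

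The remaining columnar members were within 2-fold of day 0 on day 7. Cldn7 was at 1005, 1701 and 1485 CPM, 1.69-fold above day 0 on day 7 (1.66 to 1.72), and at 1223, 1924 and 2074 CPM within cluster 2. Tjp1 was at 48.9, 84.5 and 67.4 CPM, 1.73-fold above day 0 on day 7 (1.59 to 1.88), but within cluster 2 the ratio was 1.18 (1.07 to 1.30). Cldn3 was at 711.1, 833.5 and 922.9 CPM, and Cldn4 at 76.7, 55.2 and 81.3 CPM. In the 35 secretory cells of day 7, Cldn4 was at 327.0 CPM. Ocln was at 56.1, 54.1 and 55.4 CPM and Cldn23 at 47.6, 43.1 and 49.3 CPM, and for both genes the intervals of the 3 days overlapped. Within cluster 2, however, both were lower on day 7, with ratios to day 0 of 0.729 (0.651 to 0.815) for Ocln and 0.764 (0.672 to 0.866) for Cldn23. Cldn1 was at 2.73, 3.82 and 5.46 CPM.

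On day 42, 0 of the 10 genes differed from day 0 by 2-fold in columnar cells, where 1.39% of 8317 genes were higher and 0.433% lower. The median log2 ratio was 0.28 over the members and -0.03 over all genes. Within clusters, Cldn4 had the lowest log2 ratio. In the secretory cells it was at 170.4 CPM on day 0 and 80.6 CPM on day 42, 2.11-fold lower (1.70 to 2.65) and just inside the threshold as a log2 ratio of -0.99. In cluster 2 it was at 66.8 and 105.3 CPM, 1.58-fold higher (1.41 to 1.76).

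**Figure D3:**
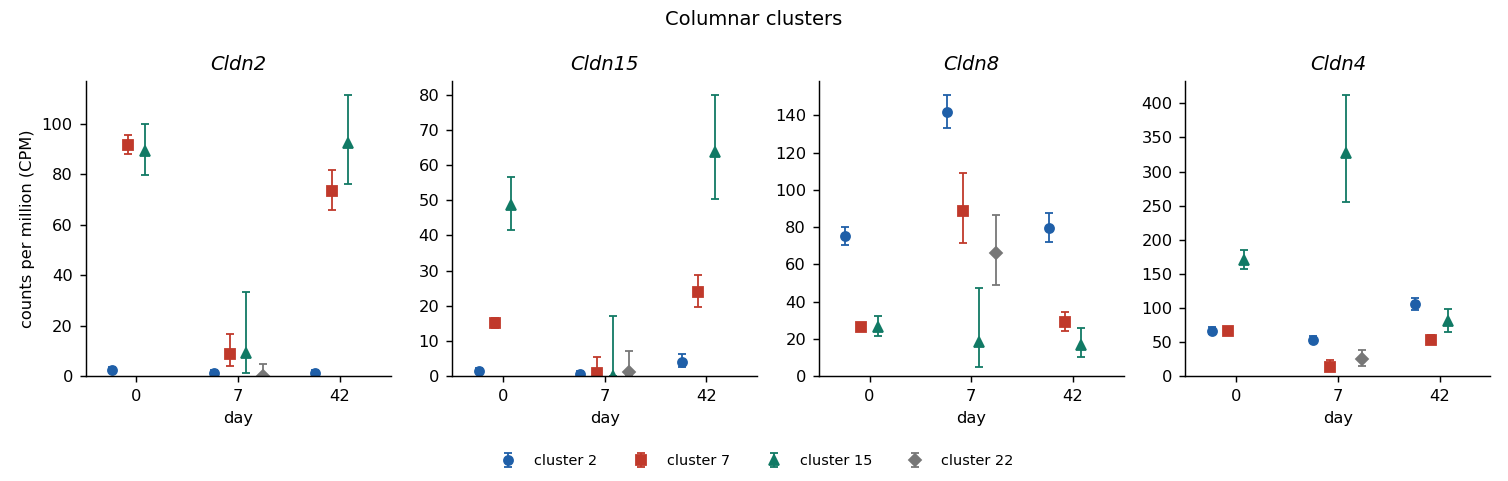
CPM of Cldn2, Cldn15, Cldn8 and Cldn4 in columnar clusters on days 0, 7 and 42, with 95% Poisson intervals. Blue circles are cluster 2, red squares 7, green triangles 15 and grey diamonds 22, and points with few cells are left out. Cldn2 is at 91.6 and 89.3 CPM in clusters 7 and 15 at day 0 and at 8.87 and 9.21 CPM at day 7, when these clusters hold 33 and 35 cells.

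In squamous cells at day 42, 3 claudins were higher than at day 0. Cldn3, Cldn4 and Cldn7 were past 2-fold, 3 of the 10 genes, and 0 were lower. Of 8401 genes, 2.79% were higher and 2.39% lower by that much, and the median log2 ratio was 0.30 over the members and -0.03 over all genes. Cldn7 was at 44.4 CPM on day 0, 84.8 CPM (83.2 to 86.4) on day 7 and 216.3 CPM (212.6 to 220.1) on day 42, 4.88-fold above day 0 (4.62 to 5.15). Cldn4 was at 34.4, 40.0 and 138.9 CPM, 4.04-fold above day 0 on day 42 (3.80 to 4.30). Cldn3 was at 22.5, 11.7 and 84.2 CPM, 3.74-fold above day 0 on day 42 (3.46 to 4.04). All 3 thus had their highest squamous level on day 42. On days 0 and 7 squamous Cldn3 was close to the T cell levels of 18.1 and 9.04 CPM, and no difference between those days is read from it. The squamous cells with at least 1 Cldn7 UMI came to 15.4%, 27.4% and 46.4%, where median depths were 9168, 11481 and 6542 UMIs. After thinning to 1000 UMIs, which left out 34, 468 and 91 cells, the shares were 2.71%, 7.52% and 15.4%, against 0.51%, 1.85% and 1.11% of T cells.

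Clusters 1 and 5 were a larger part of the squamous cells on day 42. Cluster 5 made up 2.62%, 1.79% and 27.0% of them on days 0, 7 and 42, and cluster 1 made up 13.4%, 6.23% and 38.2%. On day 42 cluster 5 held 74.0% of the squamous Cldn3 UMIs, 72.9% of Cldn4, 63.8% of Cldn7, 61.1% of Cldn1 and 84.5% of Cldn23, with 32.0% of all squamous UMIs. Without cluster 5 the log2 ratios of day 42 over day 0 were 0.87 for Cldn3, 0.95 for Cldn4 and 1.65 for Cldn7, so that Cldn7 alone was past 2-fold. With equal weight to each of the 9 clusters with at least 50 cells on both days they were 0.22, 0.22 and 0.52, and 0 members were past 2-fold.

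Within cluster 5 itself, with 87, 162 and 2153 cells on the 3 days, Cldn4 and Cldn7 differed little. Cldn4 was at 293.1, 331.3 and 316.7 CPM, Cldn7 at 394.8, 388.5 and 431.3 CPM and Cldn1 at 96.5, 125.4 and 112.4 CPM. Cldn3 was at 253.5, 103.1 and 194.8 CPM, 2.46-fold below day 0 on day 7 (2.11 to 2.86). Cldn23 was at 45.6, 10.5 and 20.8 CPM, 4.36-fold below day 0 on day 7 (2.84 to 6.78). Cldn3 and Cldn23 in this cluster were thus both lowest on day 7, and so was the summed level of the columnar markers there, at 5210, 2351 and 3908 CPM with 9 of 9 above 0, most of it Krt19 at 3744, 1526 and 2551 CPM. The part of columnar RNA in these levels was not tested. Tjp1 was at 151.0, 101.3 and 80.4 CPM, 1.88-fold below day 0 on day 42 (1.61 to 2.18), and lowest on day 42.

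Cluster 1 differed between days within itself. Cldn7 was at 30.9, 22.5 and 137.7 CPM on days 0, 7 and 42, 4.46-fold above day 0 on day 42 (3.73 to 5.38). Cldn4 was at 13.2, 13.2 and 71.6 CPM, 5.42-fold above (4.13 to 7.24). Cldn3 was at 7.35, 2.98 and 35.8 CPM, 4.87-fold above (3.38 to 7.27). These claudins were therefore above day 0 on day 42, and so was Cldn1, at 5.39, 3.57 and 32.5 CPM, 6.04-fold above day 0 (3.96 to 9.70). The levels of Cldn3 on days 0 and 7 were under those of T cells. Cldn7 on day 7 was under its 36.1 CPM in endothelial cells, which had 16.6 CPM on day 0. No difference between days 0 and 7 is read from Cldn3 or Cldn7 here, and their day 42 ratios start from these low levels. After thinning, the share of cluster 1 cells with a Cldn7 UMI was 2.48% (1.25 to 4.40), 1.07% (0.39 to 2.31) and 11.3% (10.2 to 12.5). The summed columnar markers in cluster 1, 9 of 9 above 0, were also highest on day 42, at 371.3, 223.1 and 687.2 CPM. Most of this was Epcam, at 200.6, 150.9 and 429.7 CPM. The part of columnar RNA in the claudin levels was not tested. Of the other members in cluster 1, Cldn23 had 1, 2 and 28 UMIs (0.24, 0.30 and 1.36 CPM), and Ocln was at 10.5, 4.46 and 13.1 CPM, Tjp1 at 38.9, 30.1 and 33.8 CPM and Cldn8 at 5.14, 2.53 and 2.04 CPM.

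In cluster 3, the dividing cells, the day 7 values stood already near those of day 42. Cldn1 was at 10.9, 26.5 and 33.3 CPM, 2.43-fold (1.79 to 3.39) and 3.05-fold (2.21 to 4.32) above day 0. Cldn4 was at 26.8, 56.2 and 51.3 CPM, 2.10-fold (1.72 to 2.58) and 1.92-fold (1.55 to 2.39) above. Cldn7 was at 86.8, 141.0 and 150.2 CPM, 1.62-fold (1.46 to 1.82) and 1.73-fold (1.54 to 1.95) above. Cldn3 was the exception there, at 29.1, 12.5 and 44.3 CPM. In cluster 4, Cldn4 was at 22.8, 11.4 and 22.6 CPM and Cldn7 at 27.6, 15.4 and 31.2 CPM, with intervals of the day 42 ratio that held 1 (0.78 to 1.25 and 0.92 to 1.39). Cldn7 in cluster 4 was under its levels in endothelial cells on days 7 and 42, 36.1 and 37.6 CPM. No difference between days is therefore read from Cldn7 there. Outside clusters 1 and 3, the 3 differences of these claudins past 2-fold on day 42 in a squamous cluster rested on few UMIs. Cldn3 had 5 UMIs on day 0 and 28 on day 42 in cluster 12, Cldn7 had 18 and 55 there, and Cldn4 had 7 on each day in cluster 17.

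**Figure D4:**
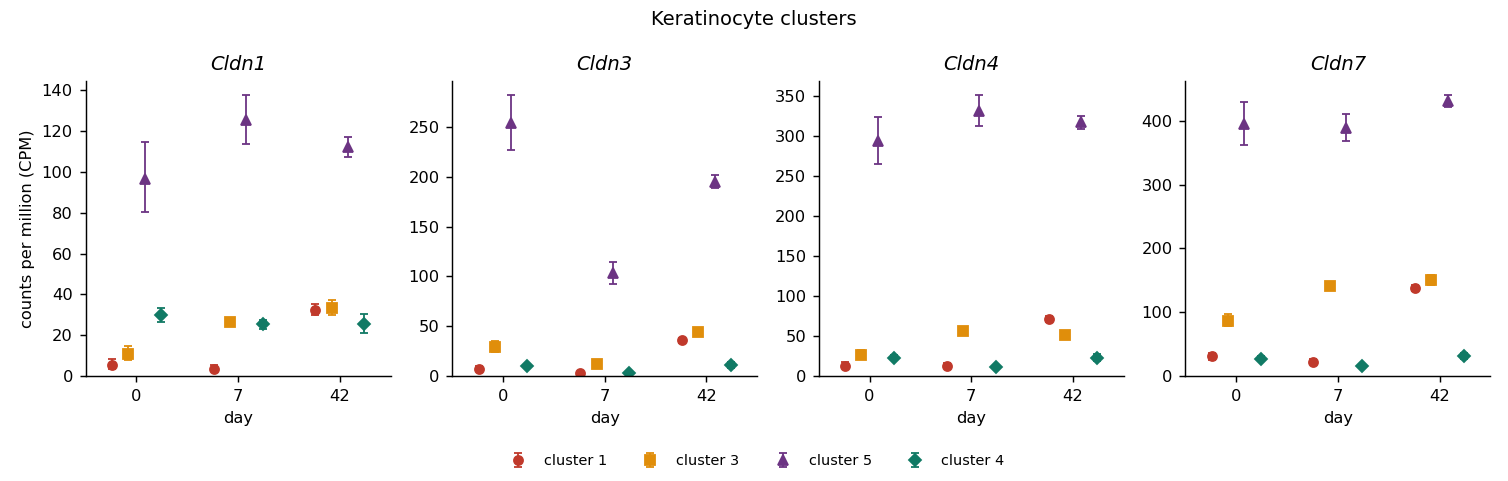
CPM of Cldn1, Cldn3, Cldn4 and Cldn7 in keratinocyte clusters on days 0, 7 and 42, with 95% Poisson intervals. Cldn7 in cluster 5 is at 394.8, 388.5 and 431.3 CPM, and in cluster 1 at 30.9, 22.5 and 137.7 CPM.

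Some markers of columnar cells were also higher in squamous cells on day 42. All 9 of 9 were above 0, at a summed 627.0, 490.1 and 1667 CPM on days 0, 7 and 42. Krt19 was at 201.0 and 886.1 CPM on days 0 and 42, Epcam at 219.6 and 502.7 CPM and Krt20 at 33.5 and 180.9 CPM. In contrast Krt8 was at 78.8 and 34.8 CPM, Lgals4 at 56.4 and 30.9 CPM, Car1 at 10.9 and 7.12 CPM, Slc26a3 at 4.32 and 1.77 CPM and Vil1 at 2.71 and 0.83 CPM. The columnar markers thus went both ways, and the part of columnar RNA in the squamous claudin levels was not tested. With the 5% of cells of each library with the highest doublet scores left out, the same 3 claudins were past 2-fold.

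On day 7, 0 of the 10 genes differed from day 0 by 2-fold in squamous cells, where 1.38% of 8378 genes were higher and 1.17% lower. The median log2 ratio was -0.21 over the members and -0.01 over all genes. Cldn7 came nearest, at 44.4 and 84.8 CPM, 1.91-fold above day 0 (1.81 to 2.02) with a log2 ratio of 0.80. The dividing cluster 3 made up 8.11% of squamous cells on day 0 and 21.9% on day 7, and held 11.3% and 43.5% of all squamous UMIs and 22.1% and 72.4% of those of Cldn7. With equal weight to clusters the log2 ratio of Cldn7 was 0.13, while it was past 2-fold with the mean of CPM per cell (1.09) and with thinning (1.22). Neutrophil markers, 3 of 3 above 0, were at a summed 22.8, 1552 and 182.7 CPM in squamous cells on days 0, 7 and 42, and Cldn7 in neutrophils at 15.5 CPM on day 7. Cldn1 was at 44.9, 34.5 and 58.8 CPM, Ocln at 13.7, 9.99 and 18.5 CPM and Tjp1 at 44.0, 38.0 and 49.5 CPM. Each day was within 2-fold of day 0 for these 3 genes. Their log2 ratios at day 42 turned to -0.28, -0.01 and -0.14 without cluster 5 and to -0.08, -0.03 and -0.12 with equal weight to clusters. Cldn8 was at 8.59, 3.89 and 3.67 CPM and Cldn23 at 4.24, 1.25 and 7.88 CPM. Within clusters, Cldn4 had its lowest log2 ratio in cluster 12, at 171.3 CPM in the 51 cells of day 0 and 40.2 CPM in the 1668 cells of day 7, 4.27-fold lower (2.72 to 6.45), where median depths were 1948 and 1672.5 UMIs.

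**Figure D5:**
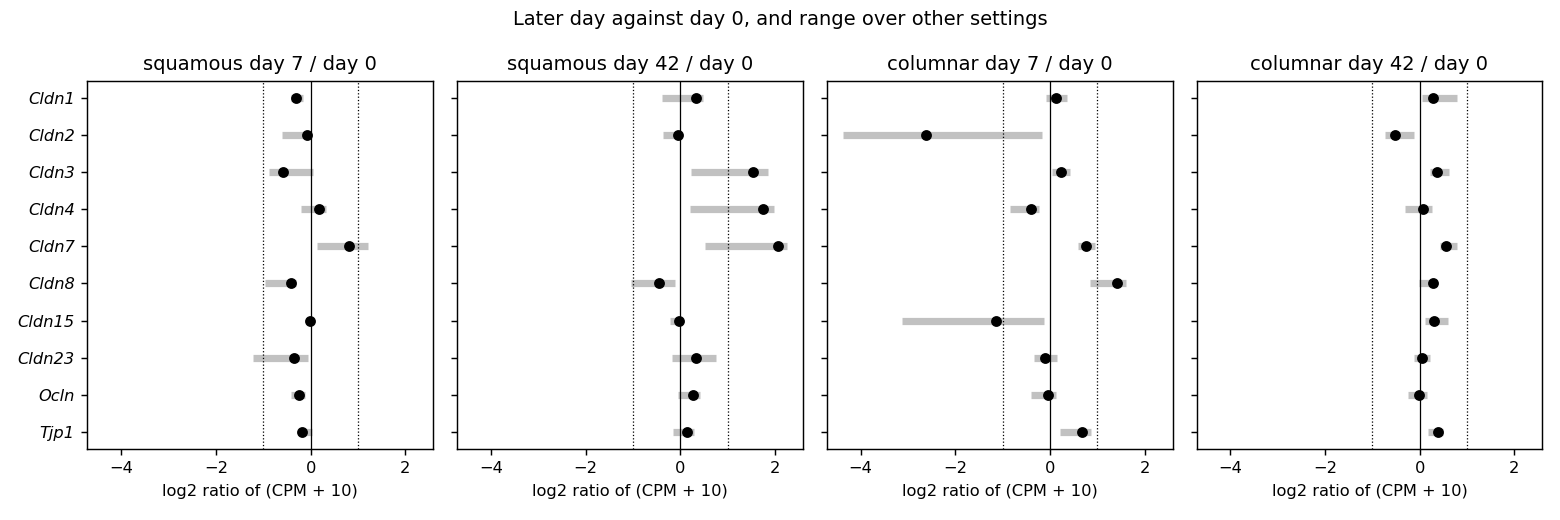
Log2 ratio of (CPM + 10) on day 7 or 42 over day 0 for each gene in squamous and columnar cells (black points), with the range over the other processing settings (grey bars) and dotted lines at 2-fold. Cldn2 in columnar cells at day 7 stands at -2.62 and reaches -0.17 where cluster 2 is used alone, and Cldn7 in squamous cells at day 42 stands at 2.06 and reaches 0.52 with equal weight to clusters.

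Of 56 further tight junction genes listed by role, 53 were on the rows of the matrix. At day 0, 15 of the 53 were higher in columnar than in squamous cells by 2-fold or more and 2 were lower, with 29 of the 53 at 10 CPM or more in either class. Over all genes at that level 11.6% were higher and 8.47% lower. By role these were 5 of 11 scaffold and plaque genes, 5 of 11 other membrane proteins, 3 of 8 polarity genes, 1 of 4 regulators and 1 of 19 claudins, and the lower genes were both polarity genes. Cgn (cingulin, a plaque protein) was at 15.5 CPM in squamous and 93.9 CPM in columnar cells, and the scaffold gene Tjp3 at 17.8 and 97.6 CPM. Among membrane proteins, Ildr1, of tricellular junctions, was at 6.77 and 55.7 CPM, Marveld3 at 11.5 and 60.3 CPM and the adhesion protein gene Cxadr at 56.9 and 182.5 CPM. The polarity gene Pard6g had the opposite order, at 95.5 and 8.16 CPM.

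In columnar cells on day 7, 2 of the 53 were higher by 2-fold or more and 0 lower, with 28 of the 53 at 10 CPM or more. Since 4.02% of all genes were higher by that much, the count is near the background. Cgnl1 (paracingulin) was at 25 CPM on day 0 and 64.2 CPM on day 7, 2.57-fold higher (2.32 to 2.85), and Igsf5, a junctional adhesion molecule gene, at 20.9 and 57.9 CPM, 2.77-fold higher (2.48 to 3.08). In squamous cells on days 7 and 42 and in columnar cells on day 42, 0 of the 53 were past 2-fold as log2 ratios, with 20, 22 and 28 of them at 10 CPM or more. Those counts are too few to stand apart from the background shares given above.

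Endothelial cells, 534 by the authors' annotation, carried Tjp1 and, on day 0, some Cldn15. All 5 of 5 endothelial markers were above 0, at a summed 4239, 3471 and 3081 CPM. Tjp1 was at 270.4 CPM (223.1 to 324.8) on day 0, 138.7 CPM (124.4 to 154.2) on day 7 and 190.7 CPM (148.9 to 240.5) on day 42, and the day 7 level was 1.95-fold below day 0 (1.56 to 2.42). Cldn5, the claudin of vessel walls, was at 500.5, 215.8 and 282.0 CPM. Both were thus highest on day 0, from 100 cells, with 312 and 122 cells on the later days. Neutrophil markers were at a summed 0, 2842 and 225.6 CPM in these cells, and squamous markers at 723.5, 2139 and 4260 CPM. Their part in the Tjp1 level was not tested. Cldn2 had no UMI in endothelial cells, where 3 counts would be 7.12, 1.22 and 8.06 CPM, and Cldn7 was at 16.6, 36.1 and 37.6 CPM, near its level in fibroblasts of 24.2, 59.6 and 48.2 CPM. Cldn15 was at 23.7 CPM (11.4 to 43.6) in endothelial cells on day 0, from 10 UMIs, at 7.71 CPM (4.64 to 12) on day 7 and at 5.37 CPM (0.65 to 19.4) on day 42. The day 0 level was no lower than in columnar cells, and the day 7 level was 3.08-fold below it (1.28 to 6.96). Cldn1 was found in fibroblasts at 58.3, 26.2 and 46.7 CPM.

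Over 60 cluster-by-day profiles of at least 50 cells, across all cell types, the genes most like each member were found by Pearson r of log2(CPM + 10) among the 5354 genes that reached 100 CPM in a profile, to which Cldn2, Cldn15 and some other members do not belong. The profiles share 3 libraries, so r is a description. Cldn3 and Cldn7 were each other's nearest gene (0.956), followed for Cldn7 by Krt19 (0.952), a keratin of simple epithelia, and Elf3 (0.946), an epithelial transcription factor gene. Cldn23 was nearest to Prr15l (0.946) and Cldn3 (0.938), and Ocln to Baiap2l1 (0.912) and Epcam (0.883). Cldn2 was nearest to Rnf186 (0.903), Aldh1b1 (0.892) and Ern2 (0.878), and Cldn15 to Ern2 (0.806). Between Cldn2 and Cldn15 themselves r was 0.826, above that of Cldn15 with Ern2. Cldn8 was nearest to Sectm1b (0.872), Sult1b1 (0.871) and Rdh16 (0.865), and Cldn4 to Shroom3 (0.840), Mal2 (0.827) and Lrrc26 (0.826). Tjp1 was nearest to Cdc42bpb (0.867), Ctnna1 (0.845), the gene of alpha-catenin, and Wasl (0.841). Cldn1 was nearest to Calml3 (0.800), Fam84a (0.787) and Nectin4 (0.768), and its highest r with another member was 0.318, with Cldn4.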

How the data were processed

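Droplet-based 3′ libraries of pooled distal colon and anus were measured on days 0, 7 and 42, 1 library per day. The deposited matrix holds whole-number counts of UMIs per gene and cell, per the file headers, for 31053 genes and 37080 cells. Cell Ranger 3.0.2 and build mm10 are named in the submitters' processing notes. The annotation release, cell filter and cell typing are not given in the sources used here. The authors' deposited size factor, a ratio of each cell's total to the geometric mean of all totals, was checked but not used for levels, and their day, cluster and cell type per cell were used as given. Doublets were not removed. As 1 alternative, the 5% of cells per library with the highest Scrublet scores were left out, since its own threshold marked 3.81%, 0% and 2.29%.

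UMIs were summed per class or cluster and day (Python 3.11.15, numpy 2.4.6, scipy 1.17.1) and divided by the summed total. Background shares cover genes at 10 CPM or more on either side. Of the 10 members, 6 reached 10 CPM in each squamous comparison of days, 9 in each columnar one and 10 between classes, and counts are given over all 10. The steps were tested on simulated counts. Alternatives were a filter on cells, other totals and scalings, equal weights, a pseudocount of 1 CPM, thinning, and leaving out cells or clusters. From the tight junction list, genes past 2-fold at 50 CPM or more were named, at most the 6 largest per comparison, and for likeness the 3 genes with the highest r. Members and lists were chosen with earlier results of these data known.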

Additional observations from a re-analysis of the deposited data

Results flagged for a closer look

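For 4 genes on day 7 and 1 on day 42, the log2 ratio to day 0 had opposite signs in squamous and columnar cells, with both counting intervals off 0. The difference was not tested, since each day is 1 library. On day 7 the log2 ratio of Cldn8 was -0.42 in squamous cells and 1.42 in columnar ones, which differ by -1.84. For Tjp1 the values were -0.17 and 0.68, a difference of -0.85, and for Cldn3 -0.58 and 0.23, a difference of -0.81. For Cldn4 the order was the other way, 0.17 for squamous and -0.41 for columnar cells, with a difference of 0.58. The squamous signs of Cldn3, Cldn4 and Tjp1 changed with the setting, over ranges of -0.89 to 0.06, -0.21 to 0.32 and -0.25 to 0.04. Squamous Cldn3 was also close to its level in T cells on both days. Squamous Cldn8 was low too, at 8.59, 3.89 and 3.67 CPM on days 0, 7 and 42. In endothelial cells Cldn8 was at 4.74, 3.24 and 2.69 CPM, so no difference between days is read from its squamous side. On day 42 the log2 ratio of Cldn8 was -0.44 for squamous and 0.27 for columnar cells, with a difference of -0.71, and the columnar value was -0.03 with equal weight to clusters.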

How the results depend on the processing

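Counts of members past 2-fold stayed within 1.5 times under the alternatives run between the classes at day 0 and in columnar cells on day 42. In squamous cells on day 7 the count of 0 became 1 with the mean of CPM per cell and with thinning (Cldn7, log2 ratios of 1.09 and 1.22) and 1 with a pseudocount of 1 CPM (Cldn23, -1.22). In squamous cells on day 42 the count of 3 became 0 with equal weight to clusters, and 1 (Cldn7) without cluster 5 and without clusters 1 and 5. In columnar cells on day 7 the count of 3 became 1 (Cldn2) with the mean of CPM per cell and with thinning, and 0 where equal weight left cluster 2 alone. The settings without clusters 1, 5, 7 or 22 by themselves or in pairs were chosen after seeing the data. No member past 2-fold changed sign under these settings. Median-of-ratios size factors stood at -0.18, -0.19, -0.21 and -0.08 on the log2 scale relative to totals (squamous days 7 and 42, columnar days 7 and 42), which raised ratios to day 0. Under the settings run, signs changed for Cldn1, Cldn23, Ocln and Tjp1 in squamous cells on day 42. They also changed for Cldn3, Cldn4, Cldn15 and Tjp1 in squamous cells on day 7. In columnar cells they changed for Cldn1, Cldn23 and Ocln on day 7 and for Cldn4, Cldn8, Cldn23 and Ocln on day 42. Between the classes at day 0 the sign of Tjp1 changed. No library can be left out with 1 per day. No paired analysis was possible because each group is 1 library.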
